A study of Homo sapiens with 6 samples.

Results

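hsa-miR-7-5p is the mature miRNA of the miR-7 genes, and it was the 1 row of that stem among the 1007 miRNA rows analysed here, of which 497 carry known human names and 510 are sequences predicted by the authors. It was chosen by its name and because earlier results of these data showed it higher after treatment, so its own difference between the groups is given as a description, without a test. The libraries hold small RNA from exosomes released by MHCC97H cells, a highly metastatic line of human liver cancer. The 3 xanthatin samples came from cells given 4 µmol/L xanthatin, a plant sesquiterpene lactone, over 24 h. The 3 control samples came from cells labelled Control. The drug was dissolved in DMSO, kept at 0.5% in all experiments per the labels, and all cells grew in medium that held serum with its exosomes and serum without them. All libraries are of 1 cell line, and no label says whether replicates were separate cultures, so the spread between them may be technical.

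A miRNA guides the Argonaute protein to transcripts that pair with its seed, bases 2 to 8 from its 5′ end, and those transcripts are then translated less and degraded faster. miR-7 is known as a brake on growth factor signalling: it represses the receptor EGFR and the insulin receptor substrates IRS1 and IRS2. It is abundant in neurons, pituitary and pancreatic islets. Its own amount is controlled by other RNAs, since the long noncoding RNA Cyrano (OIP5-AS1) degrades it and the circular RNA CDR1as carries many sites for it. Neither EGFR nor any other protein or messenger RNA was measured in these libraries.

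The mature sequence is shown first because its seed defines the family, with the seed in capitals (RefSeq, GRCh38.p14). The 3′ arms of its precursors follow, with their own seeds in capitals, because they differ between the precursors while the 5′ arm does not.
hsa-miR-7-5p: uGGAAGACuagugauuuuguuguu
hsa-miR-7-1-3p: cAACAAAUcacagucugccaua
hsa-miR-7-2-3p: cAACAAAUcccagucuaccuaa

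Among 2370 mature names in the RefSeq table, 1 had this seed, hsa-miR-7-5p itself, and 0 had it shifted by 1 base. Of the known rows that matched a sequence (444 of 497), the nearest to miR-7-5p were 4 let-7 family rows, each 8 edits away, so none of the matched rows is a near copy of it. Neither 3′ arm was among the rows analysed here. For comparison, 35 known rows had at least as many counts as miR-7-5p (1317 over the 6 libraries) and a precursor with 2 arms named alike, and for 20 of them (57.1%) the other arm was listed too.

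The mature miRNA can come from 3 genes. MIR7-1 lies on chromosome 9 from 83969748 to 83969857, minus strand, within HNRNPK, a gene for an RNA-binding protein; it overlaps an exon in 1 of that gene's 11 annotated transcripts (GENCODE release 29, GRCh38). MIR7-2 lies on chromosome 15 from 88611825 to 88611934, plus strand, in no annotated host gene. MIR7-3 lies on chromosome 19 from 4770670 to 4770779, plus strand, within the noncoding gene MIR7-3HG, and overlaps an exon in 0 of its 10 transcripts. The deposited counts do not separate the genes, since a script found the same 24 bases (in capitals) in each hairpin that the RefSeq table holds.
MIR7-2 hairpin: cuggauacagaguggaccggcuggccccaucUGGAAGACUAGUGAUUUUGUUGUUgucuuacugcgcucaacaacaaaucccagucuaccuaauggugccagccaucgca
MIR7-3 hairpin: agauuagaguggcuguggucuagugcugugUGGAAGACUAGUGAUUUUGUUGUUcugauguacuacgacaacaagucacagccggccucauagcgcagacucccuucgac

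MIR7-2 has 2 miRNA genes beside it, MIR1179, 3628 bases away on the same strand, and MIR3529 on the opposite strand of the same bases. The mature hsa-miR-3529-3p is the exact reverse complement of miR-7-5p, and the capitals mark the bases that pair with its seed.
hsa-miR-3529-3p: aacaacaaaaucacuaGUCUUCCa
No row of miR-1179 or miR-3529 was among those analysed here.

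To show what the seed pairs with, sites were read from GENCODE release 29 transcripts, with the 7 bases GTCTTCC in capitals. The longest 3′ UTR of EGFR held 3 such sites, those of IRS1 and IRS2 held 2 each, that of the kinase PAK1 held 1 and that of the PI3K subunit PIK3CD held 3. OIP5-AS1 held 3 in its longest transcript. Only the transcript strand was searched. The motif is common: 11.9% of 19111 genes had it in their longest 3′ UTR, and so did 34.9% of 3′ UTRs of about the length of that of EGFR. A match describes the letters and is not evidence of regulation in these cells. A pair of EGFR sites and the OIP5-AS1 site with the longest pairing are shown, because they are the textbook link from this miRNA to its pathway.
EGFR, chr7:55206052-55206081, plus strand: gagcaaggagcacaagccacaaGTCTTCCa
EGFR, chr7:55206335-55206364, plus strand: tgagcgttagactgacttgtttGTCTTCCa
OIP5-AS1, chr15:41300570-41300599, plus strand: taagaacaacaaaatcaccaatGTCTTCCa
Upstream of its seed match, the OIP5-AS1 site pairs with an unbroken run of 14 bases of miR-7-5p outside the seed, against runs of 3 to 4 bases in the EGFR sites shown.

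miR-7-5p was read in every library, and its level was higher in each xanthatin library than in any control library. The deposited counts were 431, 528 and 271 in xanthatin replicates 1, 2 and 3, and 28, 42 and 17 in control replicates 1, 2 and 3. These counts cannot be compared as they stand, because the xanthatin libraries held 204520 to 267956 miRNA counts and the control libraries 63965 to 80088. As a share of the miRNA counts of its library, miR-7-5p held 0.181%, 0.197% and 0.133% in the xanthatin libraries, against 0.0350%, 0.0598% and 0.0266% in the control libraries. The exact 95% Clopper-Pearson intervals ran from 0.117% to 0.215% over the xanthatin libraries and from 0.0155% to 0.0808% over the control libraries, and no interval of one group reached the other. With no molecular identifiers on the reads, all such intervals describe counting error alone.

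Scaled by TMM, which sets each library against the bulk of its miRNAs, the level of miR-7-5p was 2073, 2230 and 1529 CPM, the count scaled to a common library size, in xanthatin replicates 1, 2 and 3, against 329, 539 and 229.8 CPM in control replicates 1, 2 and 3. Xanthatin replicate 3 was the lowest of its group, and control replicate 2 the highest of its own. The means were 1944 ± 368 CPM in xanthatin and 366 ± 158 CPM in control libraries (SD, n = 3 each), a ratio of 5.31. The lowest xanthatin library was 2.84 times the highest control library, and the 9 pairs of a xanthatin and a control library gave folds of 2.84 to 9.70. The fitted log2 fold change was 2.41 (SE 0.40), with no p-value given because the miRNA was chosen for this difference. Of the 254 rows with enough counts to be fitted, 25.2% had all 3 xanthatin values above all 3 control values, and 6.69% had a log2 fold change at least as high.

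**Figure D1:**
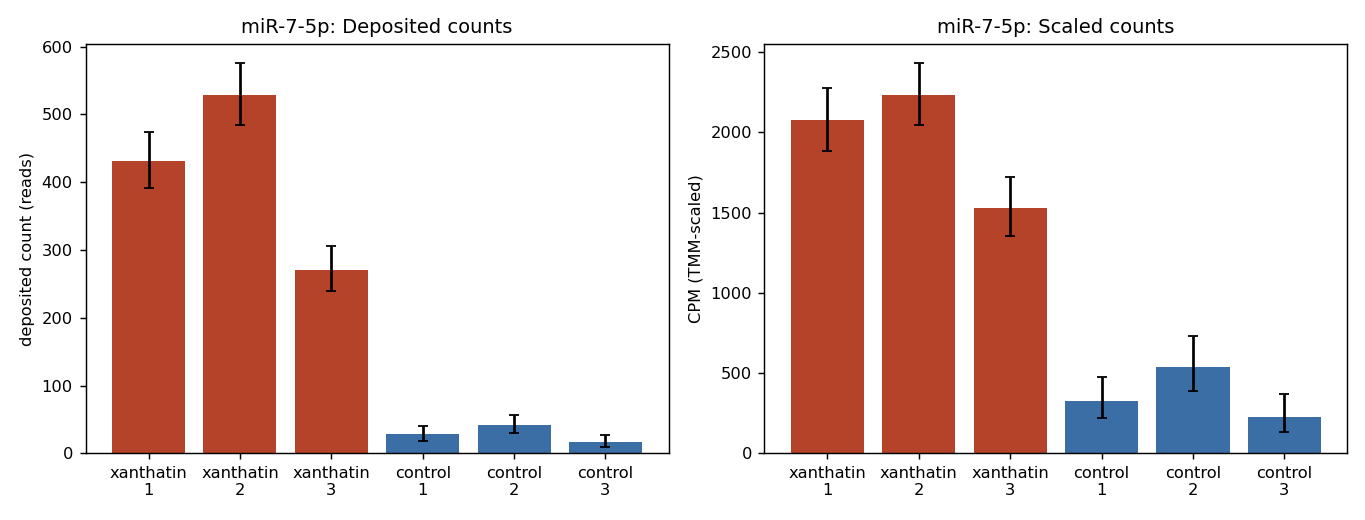
miR-7-5p in each library, as deposited read counts (left panel) and as CPM scaled by TMM (right panel), with xanthatin libraries in red and control libraries in blue; bars start at 0 and error bars are exact 95% Poisson intervals of the count. The xanthatin libraries lie at 1529 to 2230 CPM and the control libraries at 229.8 to 539 CPM, with no overlap.

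Within the xanthatin group the order of the levels was replicate 2, 1 and 3. The exact 95% Poisson intervals of replicates 2 (2043 to 2428 CPM) and 1 (1882 to 2278 CPM) overlapped, while that of replicate 3 (1352 to 1722 CPM) lay below both. Within the control group the order was replicate 2, 1 and 3, and the interval of replicate 1 (219 to 476 CPM) overlapped those of replicates 2 (388 to 729 CPM) and 3 (134 to 368 CPM). The coefficient of variation was 18.9% in xanthatin and 43.1% in control libraries, against 5.13% and 19.9% that counting error alone would give. Other fitted rows within 2-fold of its level varied about as much, with a median coefficient of variation of 18.2% over 40 rows in xanthatin and 48.5% over 98 rows in control libraries.

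The authors' deposited TPM values gave the same order of libraries, at 14.9, 16.6 and 10.1 in xanthatin and 2.31, 4.23 and 1.81 in control libraries, a ratio of means of 4.98. When every library was thinned to 63965 miRNA counts, miR-7-5p kept 123, 125 and 81 counts in xanthatin and 21, 41 and 17 counts in control libraries. Library totals alone, without TMM, gave a log2 fold change of 2.06. That scaling also shifted the median of all fitted rows to -0.50, against -0.16 with TMM, and relative to those medians miR-7-5p stood at 2.56 in each. The shares and CPM are relative to other miRNAs, and the deposited TPM is relative to a larger total whose content is not stated. From such values, more miR-7-5p in the vesicles and less of the other RNAs in the total cannot be told apart.

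**Figure D2:**
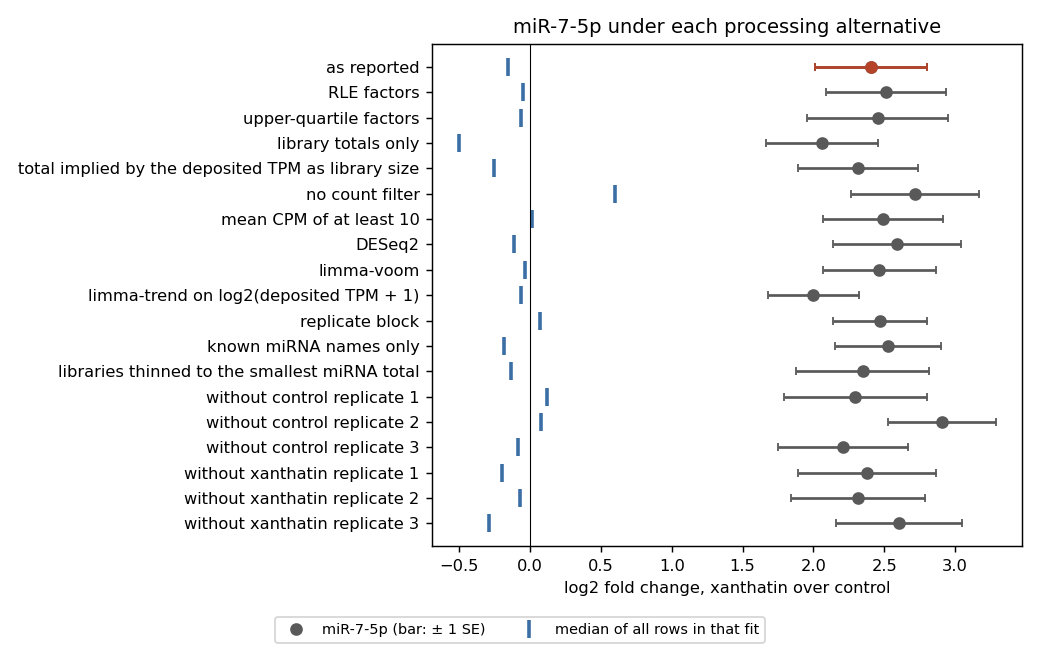
Fitted log2 fold change of miR-7-5p, xanthatin over control (points, horizontal bars ± 1 SE), as reported (red) and under 18 other ways of processing (grey), with the median of all rows of the same fit as a blue tick. The estimates run from 2.0 to 2.90, and each lies to the right of its median.

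miR-7-5p stood higher in the order of known rows in xanthatin than in control libraries. By level it ranked 43, 43 and 51 among the 289 to 307 known rows read in each xanthatin library, and 117, 88 and 131 among the 256 to 271 read in each control library. In xanthatin libraries it stood between miR-941 (2016 ± 154 CPM) and miR-92b-5p (1858 ± 336 CPM), with miR-22-3p next above at 2078 ± 364 CPM and let-7d-5p next below at 1715 ± 332 CPM (SD, n = 3). These neighbours did not differ from it in level beyond their spread. In control libraries its neighbours were miR-1180-3p, miR-125a-3p, miR-339-5p and miR-615-3p, at mean levels of 359 to 371 CPM. In xanthatin libraries those 4 averaged 179 to 355 CPM. None of them passed the test between groups (adjusted p = 0.122 to 0.985, edgeR quasi-likelihood test with Benjamini-Hochberg adjustment over the 254 rows). Of all fitted rows, 30.3% passed. Of the neighbours in xanthatin libraries, miR-92b-5p passed as lower (adjusted p = 0.0247) and let-7d-5p as higher (adjusted p = 0.0256, both edgeR). Their other neighbours, miR-941 and miR-22-3p, did not pass (adjusted p = 0.1499 and 0.2615, edgeR). A sequenced read spans a whole mature miRNA, so levels of different miRNAs were compared without a length term.

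Likeness to miR-7-5p was measured as the root-mean-square difference of log2 CPM over the 6 libraries, after each row was centred on the mean of its group means. The nearest of 253 other fitted rows were novel643_mature (0.27), novel415_mature (0.27), let-7c-5p (0.31), novel550_mature (0.33), let-7a-5p (0.38) and let-7f-5p (0.40), where the median of all rows was 1.64. The rows named by a number and the suffix mature are the authors' predictions, and no sequence for them was used here. novel643_mature had 2044, 3103 and 1699 counts in xanthatin and 130, 151 and 85 in control libraries. Like miR-7-5p, it was highest in replicate 2 and lowest in replicate 3 of each group. novel415_mature showed that order too, on 35, 75 and 24 counts in xanthatin and 2, 5 and 1 in control libraries. let-7c-5p, a growth-restraining miRNA that pairs with RAS transcripts, had 19241, 22934 and 23197 CPM in xanthatin and 4350, 6558 and 4176 CPM in control libraries. It shared with miR-7-5p the high control replicate 2 and lacked its low xanthatin replicate 3. The measure uses all 6 libraries, and the profile it matches is mostly the difference between the groups, so that these rows too were higher in xanthatin libraries follows from their choice and is no separate result. A like order of replicates within the groups is favoured by the same choice and is no separate result either.

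**Figure D3:**
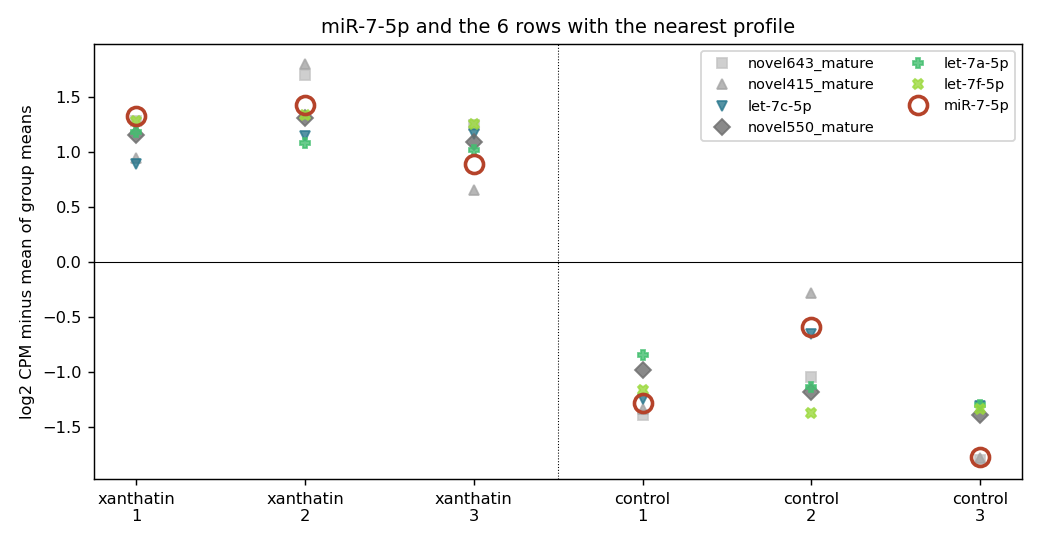
Centred log2 CPM of miR-7-5p (open red circles) and of the 6 rows nearest to it (filled symbols) in each library, xanthatin left of the dotted line and control right of it. miR-7-5p is lowest in control replicate 3 and lies above the other controls in control replicate 2, a pattern that novel643_mature, novel415_mature and let-7c-5p share. The 6 rows were chosen for their likeness over all libraries, so the shared pattern is no separate result.

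Over the whole table, 77 of 254 rows (30.3%) passed at an adjusted p under 0.05, 34 (13.4%) higher and 43 (16.9%) lower in xanthatin libraries, and with library totals alone 21 were higher and 60 lower. The other miRNAs known to act on the same receptor were read against those shares. Of 12 other miRNAs reported to repress EGFR, 7 were listed and 5 fitted. Their log2 fold changes ran from 0.42 to 1.28, with a median of 0.84 against -0.16 over all fitted rows. The listed members took 0.85% to 0.98% of xanthatin counts and 0.50% to 0.96% of control counts, so the groups overlapped. Of the 5 fitted, 1 passed as higher, against 13.4% of all fitted rows. The 1 was miR-146a-5p, a miRNA induced by inflammatory signals, with 560, 583 and 542 counts in xanthatin and 108, 99 and 62 in control libraries (log2 fold change 1.28, SE 0.25, adjusted p = 0.0101, edgeR). All 3 of its xanthatin CPM values lay above the control values. With the replicate number added to the fit as a block, it did not pass (adjusted p = 0.0512, edgeR). The most abundant, miR-27b-3p, was at 3389 ± 571 CPM in xanthatin and 2538 ± 831 CPM in control libraries, and its groups overlapped. miR-128-3p was at 2833 ± 357 CPM in xanthatin and 1823 ± 666 CPM in control libraries (log2 fold change 0.64, adjusted p = 0.149), and passed without control replicate 3 (1.05, adjusted p = 0.0454). miR-145-5p had 0 counts in all xanthatin libraries and 5, 0 and 3 in control libraries, too few to be fitted, and miR-133a-3p was not among the rows analysed here.

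Further down the pathway, of 17 other miRNAs reported to act on RAS signalling, 13 were listed and 11 fitted. Of the 11, 8 passed as higher and 1 as lower, against 13.4% and 16.9% of all fitted rows. The median log2 fold change of the 11 was 1.90. The 8 were let-7 family members and so stand for 1 family. let-7e-5p of that family was fitted and did not pass (log2 fold change 0.75, adjusted p = 0.0939, edgeR). The most abundant of the 8, let-7b-5p, had a log2 fold change of 1.37 (SE 0.14) and let-7a-5p one of 2.17 (SE 0.14). Among the others were let-7f-5p at 30468 ± 848 CPM in xanthatin and 5089 ± 412 CPM in control libraries and let-7i-5p at 27944 ± 2036 CPM in xanthatin and 5148 ± 1232 CPM in control libraries. The fitted log2 fold changes of the 8 ran from 1.09 (let-7d-5p) to 2.77 (miR-98-5p), against 2.41 for miR-7-5p. let-7i-5p (2.44), let-7f-5p (2.58) and miR-98-5p lay above that value and the others below it. The 1 that fell was miR-143-3p, a miRNA of smooth muscle and fibroblasts, with 13, 21 and 22 counts in xanthatin and 169, 69 and 180 in control libraries (log2 fold change -4.26, SE 0.54). Of the 8, let-7d-5p did not pass when xanthatin replicate 2 or 3, or control replicate 1 or 2, was left out (adjusted p = 0.0654 to 0.0837), and miR-98-5p did not when any xanthatin library, or control replicate 1 or 3, was left out (adjusted p = 0.0739 to 0.0977, edgeR).

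miRNAs that act on the branch from the insulin receptor substrates to PI3K were read next. Of 6 other miRNAs reported to repress IRS1, IRS2 or PI3K components, all were listed, 4 were fitted and 0 passed edgeR's test, with 2 at an unadjusted p under 0.05, 0 called by DESeq2 and 1 by limma-voom. Their median log2 fold change was -0.68, and 30.3% of all fitted rows passed edgeR's test. The 1 was miR-126-3p, an endothelial miRNA with 11, 8 and 20 counts in xanthatin and 19, 16 and 22 in control libraries (log2 fold change -1.86, adjusted p = 0.0750, edgeR). miR-30d-5p was at 2874 ± 287 CPM in xanthatin and 4024 ± 959 CPM in control libraries (log2 fold change -0.49, adjusted p = 0.139), and passed with library totals alone (-0.84, adjusted p = 0.0319).

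miR-7-5p also belongs to the miRNAs that neural and endocrine cells hold in plenty. Of 10 others on that list, 8 were listed and 3 fitted, and 2 of the 3 rose, against 13.4% of all fitted rows. The 2 were miR-182-5p and miR-183-5p, from 1 cluster that sensory cells express strongly, with log2 fold changes of 0.65 and 1.07. With any 1 of the 6 libraries left out, miR-182-5p did not pass (adjusted p = 0.0554 to 0.153, edgeR). miR-375-3p, the miRNA most typical of pancreatic islets, had 72, 82 and 58 counts in xanthatin and 44, 56 and 47 in control libraries, which scale to different levels (340 ± 11 CPM in xanthatin and 624 ± 101 CPM in control libraries, log2 fold change -0.87, adjusted p = 0.0965). The neuronal miR-9-5p had 2, 6 and 0 counts in xanthatin and 0, 0 and 1 in control libraries, and the neuronal miR-124-3p was not among the rows analysed here.

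The RNAs that set miR-7 levels were not measured, and the miRNAs read here do not report their amounts. miR-671-5p, which directs the cutting of CDR1as, had 16 counts in xanthatin replicate 1 and 0 in the other 5 libraries, where 3 counts, the limit that a count of 0 allows, equal 12.7 to 40.6 CPM. Its other arm, miR-671-3p, had 40, 84 and 46 counts in xanthatin and 37, 91 and 26 in control libraries (log2 fold change -1.27, adjusted p = 0.143, edgeR). Of 8 other miRNAs known to be degraded by a pairing transcript or through the ubiquitin ligase subunit ZSWIM8, 7 were listed and 4 fitted. Of the 4, 0 passed edgeR's test, against 30.3% of all fitted rows, with 1 at an unadjusted p under 0.05 and 0 called by DESeq2 or limma-voom. Their log2 fold changes were -0.44 to 1.16, with a median of 0.63. The most abundant were miR-221-3p, at 2865 ± 221 CPM in xanthatin and 1278 ± 924 CPM in control libraries, and miR-30c-5p, at 1081 ± 172 CPM in xanthatin and 928 ± 173 CPM in control libraries.

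**Figure D4:**
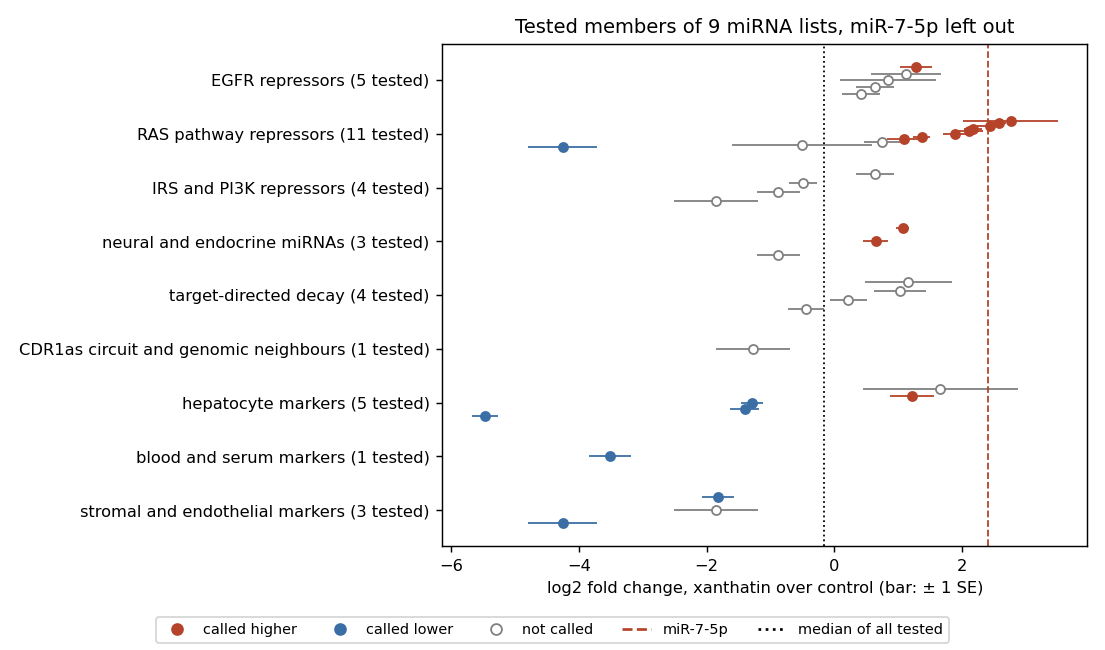
Fitted log2 fold changes, xanthatin over control (points, bars ± 1 SE), of the fitted members of 9 miRNA lists other than miR-7-5p, whose value of 2.41 is the dashed line; red points passed the test as higher, blue as lower, and open points did not pass. The points around the dashed line are let-7 members of the RAS list, among them let-7f-5p and let-7i-5p, and the blood and stromal lists lie to the left of the median of all fitted rows.

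Markers of blood and serum, of stroma and endothelium, and of hepatocytes were read too, and their part in the level of miR-7-5p was not tested. Blood and serum markers, 4 of 7 listed, took 0.0552% to 0.0705% of xanthatin and 0.619% to 1.19% of control counts. Of these, miR-486-5p, a red blood cell miRNA, was the 1 that was fitted, and it fell (-3.52). It made up 99.1% of the list's control counts, so the list's share follows this 1 miRNA. miR-451a, also of red blood cells, had 1, 9 and 0 counts in xanthatin and 1, 3 and 2 in control libraries, and miR-150-5p was at 0 in 5 of the 6 libraries. Stromal and endothelial markers, 7 of 8 listed, took 0.0616% to 0.0885% of xanthatin and 0.413% to 0.564% of control counts. Of 3 fitted members, 2 fell, miR-143-3p and miR-10b-5p, against 16.9% of all fitted rows. These 2 held most of the list's counts in each control library, so the list's share follows them. Hepatocyte markers, 6 of 7 listed, took 2.88% to 3.52% of xanthatin and 11.4% to 14.5% of control counts. Since the medium held serum with its exosomes, their presence cannot check the labelled cell type. Of 5 fitted, 3 fell, miR-122-5p (-5.48), miR-148a-3p (-1.29) and miR-483-5p (-1.40), and miR-192-5p rose (1.22). Over all fitted rows, 16.9% fell and 13.4% rose. Without any 1 xanthatin library, or without control replicate 1, miR-192-5p did not pass (adjusted p = 0.0823 to 0.0943, edgeR). The medium held bovine serum, and whether any of the miR-7-5p or marker reads came from serum was not tested.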

How the data were processed

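Per the labels' protocols, gel-selected RNA of 18 to 30 nt came from exosomes pelleted at 120000xg for 70 min. The authors deposited a whole-number count and a TPM value per miRNA name and library, per the file headers. The deposited TPM is the count over a constant of each library, without correction for length, and its implied total exceeds the miRNA counts. The submitters' processing notes name the build hg38. For the aligner and counter: not given in the sources used here.

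Counts were fitted with edgeR 4.0.16 (R 4.3.3, quasi-likelihood test on group, TMM, default filter with minimum count 10), leaving 254 rows (178 known, 76 predicted), with Benjamini-Hochberg adjustment over all of them and a threshold of 0.05. CPM divides counts by the TMM-scaled total of the fitted rows, and log2 CPM for the profiles adds a prior count of 2. Standard errors are log2 fold changes divided by the root of the F statistic. The fit was also run on simulated counts, and the outcome is not given here. Alternatives included DESeq2 1.42.0 and limma 3.58.1, and 1 seeded draw of thinned libraries. No replicate pair agreed within sampling noise (chi-square per degree of freedom 16.1 to 21.3).

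miR-7-5p and the lists were chosen with earlier results of these data known. Named rows were miR-7-5p, the 6 nearest profiles, the 2 known rows next above and below it in each group, and in each list the members that passed and the 2 most abundant. Others named (miR-145-5p, let-7e-5p, miR-375-3p, miR-9-5p, miR-126-3p, miR-451a and rows not listed) were chosen after their values were seen. List members that passed but are not described one by one are let-7g-5p and let-7c-5p (the last among the profiles). Sequences are from RefSeq (GRCh38.p14) and GENCODE release 29, with the 3′ UTR taken after the stop codon; like length means 0.8 to 1.25 times.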

Additional observations from a re-analysis of the deposited data

How the results depend on the processing

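miR-7-5p stayed higher in xanthatin libraries under all 18 alternatives, with log2 fold changes of 2.0 (deposited TPM + 1, limma-trend) to 2.90. Leaving out 1 library at a time gave 2.21 to 2.90, the highest without control replicate 2, the control library with the most miR-7-5p. That value differed from the reported 2.41 by more than the within-group SD of log2 CPM (0.466), and under no other alternative did the fold change do so. The log2 ratio of its mean shares moved by less than the spread between replicates under the 8 alternatives run for it. Leaving out 1 library gave 56 to 69 calls in all, with 22 higher without xanthatin replicate 1 or 3, against 34. Known names alone gave 49 calls, on 175 rows, with 22 higher and 27 lower. No label pairs the samples by replicate number. Deviations of libraries with the same number correlated at 0.12, -0.01 and -0.05, which with 3 libraries a group cannot exclude pairing. The replicate block gave 54 calls, 21 higher, and 2.47 for miR-7-5p. It ended the calls of miR-146a-5p (adjusted p = 0.0512), let-7d-5p, miR-98-5p, miR-182-5p and miR-192-5p, by edgeR. The control level of miR-7-5p rests on 17 to 42 counts a library, which limits its precision more than the 271 to 528 of the xanthatin libraries do. Over the 18 alternatives, miR-182-5p lost its call under 15, miR-98-5p under 9 and let-7d-5p and miR-192-5p under 7 each. Besides the block, library totals alone ended all 4, upper-quartile factors ended miR-98-5p, miR-182-5p and miR-192-5p, and a filter of mean CPM 10 ended let-7d-5p, miR-98-5p and miR-182-5p. miR-182-5p was also lost with RLE factors, the total implied by the TPM, limma-trend, known names only and thinned libraries. The cause was not tested.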
